A study of Mus musculus with 2 samples.

Results

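The 31 genes described here encode the NF-kB transcription factors, the proteins that hold them back or release them, and genes they are known to switch on. They were chosen by symbol, whatever their values, and all 31 were found among the 31053 genes counted in each library. The libraries were single-cell 5′ RNA libraries of natural killer (NK) cells sorted from mouse brain, with no treatment. The wildtype library came from C57BL/6 females 8 months old. The other came from females of the same age of the 3XTg-AD line, a transgenic mouse model of Alzheimer's disease whose background strain the labels do not state, nor do they give the number of mice behind either library. Each group had 1 library and hence no replicates, which allows no test, and differences between libraries cannot be told apart from differences between animals or preparations. Every interval below is a 95% interval that covers counting error only.

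NF-kB is a family of dimeric transcription factors that wait in the cytoplasm bound to inhibitors of the IkB family. Signals from cytokine receptors, and from activating receptors of lymphocytes through the BCL10 and MALT1 adaptors, switch on the IKK kinase complex, which marks the inhibitors for destruction and frees the factors to enter the nucleus. Some of the first genes they switch on, such as Nfkbia and Tnfaip3, shut the pathway off again, so their RNA is widely used as a sign of recent signalling. In NK cells the pathway serves survival, maturation and the production of cytokines. Nr4a1, an orphan nuclear receptor gene induced within minutes of receptor signalling, and Ccl4, a chemokine gene that activated NK cells transcribe strongly, served as the references for covariation between single cells.

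Promoter sequences are shown because NF-kB is known to act on several of these genes through its own binding motif. RefSeq lists promoter windows on GRCm38.p6 for 23 of the 31 genes, 35 windows in all. Relb, Nfkb1, Nfkbiz, Ikbkb, Map3k8, Malt1, Tnfaip8 and Cd83 had none. In the 250 bases before the listed start, the kappaB consensus was searched on both strands. The pattern was GGGRNNYYCC, a strict form of the letters NF-kB dimers are known to bind. R stands for A or G, Y for C or T and N for any letter. This pattern was found in 15 of the 35 windows (42.9%) against 7.25% of all 32851 windows. Those 15 windows belonged to 10 genes, namely Bcl10, Ier3, Nfkb2, Nfkbia, Nfkbid, Nfkbie, Rel, Sqstm1, Tank and Tnfaip3, and some genes have several listed starts. Windows of such genes, Tank among them, can overlap and count the same site more than once. No share over all genes is given beside the 10. The cyclic AMP response motif TGACGTCA was in 2 windows, of Birc2 and Nfkbid, against 1.55% of all windows, and AAAGGTCA, which NR4A receptors are known to bind, in 2 windows of Tank against 1.34%. These are matches of letters and were not tested as binding sites.

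The windows of the 5 genes that covaried with Nr4a1 in the 3XTg-AD library, and that of Rela, a subunit that did not, read as follows, 5′ to 3′ on the gene's strand. Capitals mark kappaB matches on either strand, and bases annotated as untranslated in GENCODE M21 were left off. Nfkbia lies on the minus strand (chr12:55492648-55492897), as does Tnfaip3 (chr10:19015411-19015547, the listed start with matches of 2). Nfkbid is on the plus strand (chr7:30422156-30422405, the listed start with matches of 3). Icam1 (chr9:21015690-21015939), Gadd45b (chr10:80929841-80930072) and Rela (chr19:5637291-5637482) are on the plus strand.
Nfkbia: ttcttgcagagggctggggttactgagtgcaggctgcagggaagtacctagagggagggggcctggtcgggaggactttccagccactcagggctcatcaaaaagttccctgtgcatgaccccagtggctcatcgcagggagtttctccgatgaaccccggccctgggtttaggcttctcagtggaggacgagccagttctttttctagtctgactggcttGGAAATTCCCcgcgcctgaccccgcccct
Tnfaip3: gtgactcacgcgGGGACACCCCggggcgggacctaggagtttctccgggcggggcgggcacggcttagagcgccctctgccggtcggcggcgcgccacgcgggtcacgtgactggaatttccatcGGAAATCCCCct
Nfkbid: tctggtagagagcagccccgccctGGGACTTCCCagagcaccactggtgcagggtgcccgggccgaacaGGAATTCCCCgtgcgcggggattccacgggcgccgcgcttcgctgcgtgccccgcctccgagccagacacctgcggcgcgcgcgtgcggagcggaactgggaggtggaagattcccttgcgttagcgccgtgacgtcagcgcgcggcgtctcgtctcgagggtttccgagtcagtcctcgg
Icam1: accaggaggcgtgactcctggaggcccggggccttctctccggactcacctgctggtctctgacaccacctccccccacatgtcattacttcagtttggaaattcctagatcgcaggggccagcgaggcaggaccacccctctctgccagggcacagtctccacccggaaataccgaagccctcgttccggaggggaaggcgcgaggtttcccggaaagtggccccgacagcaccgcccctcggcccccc
Gadd45b: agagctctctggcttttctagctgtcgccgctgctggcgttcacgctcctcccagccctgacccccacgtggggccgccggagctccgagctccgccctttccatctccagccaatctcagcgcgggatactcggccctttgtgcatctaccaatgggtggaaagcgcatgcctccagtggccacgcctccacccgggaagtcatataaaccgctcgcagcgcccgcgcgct
Rela: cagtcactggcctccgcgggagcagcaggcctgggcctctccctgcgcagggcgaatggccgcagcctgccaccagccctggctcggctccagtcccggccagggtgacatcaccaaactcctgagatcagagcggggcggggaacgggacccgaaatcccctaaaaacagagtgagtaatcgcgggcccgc
Nfkbia held 1 match, 29 to 20 bases before its start. Tnfaip3 held 2, the nearer 12 to 3 bases before its start, and Nfkbid held 2, at 226 to 217 and at 181 to 172. Icam1, Gadd45b and Rela held 0 in these windows, which says only that the exact pattern searched is not there. Stretches 1 letter away from it, such as tggaaattcc in the Icam1 window, were not counted. The windows therefore do not show that these genes lack a kappaB site.

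The wildtype library had 1709 barcodes with 5559995 unique molecular identifiers (UMIs, each standing for 1 captured RNA molecule), and the 3XTg-AD library had 1695 with 5468455. Their median barcodes held 2930 and 2846 UMIs. After filtering, 1496 and 1530 barcodes were NK barcodes, and 101 and 79 were ILC1-like, meaning that they held at least 3 summed UMIs of Itga1, Cxcr6, Inpp4b, Gzmc and Tnfsf10, genes of type 1 innate lymphoid cells. Ncr1, the gene of the NK receptor NKp46, had a UMI in 95.1% of wildtype and 97.6% of 3XTg-AD NK barcodes, and Gzma, a granzyme gene, in 95.6% and 97.6%. Both genes and Eomes, a factor typical of NK cells, are on the list that defines NK barcodes. Their shares there follow in part from that list and do not check the label. The ILC1-like label is uncertain, because its barcodes held these genes to different degrees. Eomes had a UMI in 48.5% and 55.7% of them, against 42.5% and 45.03% of NK barcodes. Gzma had a UMI in 57.4% and 43.0% of them, and Ncr1 in 88.1% and 98.7%. These shares were not corrected for depth. The ILC1-like barcodes were also deeper than NK barcodes, with medians of 5387 and 5559 UMIs against 2863.5 and 2790, and a limit on summed UMIs admits deep barcodes more easily. A sum of exactly 3 was reached by 21 and 23 of them, while 39 and 29 barcodes stopped at 2. The libraries shared 1 barcode sequence.

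Most of the 31 genes were low but measurable in NK barcodes. Levels are counts scaled to the total UMIs of the class (CPM), and since 5′ UMIs count molecules by their ends, they were not divided by gene length. Over both libraries, 30 of the 31 genes reached the minimum of 50 UMIs. The exception was Cd83, an activation marker gene, with 12 and 5 UMIs in the wildtype and 3XTg-AD NK barcodes. Summed over all 31 genes, the level was 1708 CPM in wildtype and 1865 CPM in 3XTg-AD NK barcodes.

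Among the 5 subunit genes, Rela stood at 97.7 CPM in wildtype and 111 CPM in 3XTg-AD. Nfkb1, which encodes the precursor of the commonest partner of RelA, stood at 94.4 and 82.7 CPM. Relb, a subunit of the alternative pathway, stood at 42.8 and 42.1 CPM. The other two, Rel (c-Rel) at 30.3 and 30.98 CPM and Nfkb2, the alternative-pathway precursor, at 20.4 and 24.8 CPM, were lower in both libraries. Rela and Nfkb1 thus led the subunits in both libraries.

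The inhibitors spanned a wide range. Nfkbia, the IkB-alpha gene, stood at 241 and 257 CPM, above every other gene of the set except Sqstm1. Nfkbib (IkB-beta) stood at 81.5 and 87.2 CPM and Nfkbie (IkB-epsilon) at 29.3 and 31.6 CPM. The UMIs of Nfkbia were unevenly spread, since 1 barcode held 22 of the 1122 wildtype UMIs and 1 held 37 of the 1204 in 3XTg-AD, while Nfkbib never exceeded 3 in a barcode. Among the nuclear IkB proteins, Bcl3, a co-activator or repressor with NF-kB homodimers, stood at 66.2 and 52.3 CPM. Nfkbid (IkB-NS) stood at 35.7 and 46.8 CPM, and Nfkbiz (IkB-zeta) at 18.1 and 14.3 CPM.

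The kinase genes were low in both libraries. Ikbkb, the kinase of the classical pathway, stood at 54.0 and 57.5 CPM, and Chuk, its alternative-pathway counterpart, at 22.8 and 23.9 CPM. Ikbkg (the NEMO scaffold) stood at 13.1 and 15.8 CPM, Ikbke, a relative of the IKK kinases, at 10.97 and 11.1 CPM. Map3k8, a kinase that activates the MAP kinase cascade, stood at 16.1 and 17.9 CPM, and the adaptor gene Tank at 18.3 and 17.5 CPM. Ikbkb was the highest of these 6 in both libraries.

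Upstream, Sqstm1, which encodes the selective autophagy adaptor p62 and also scaffolds TRAF ligases, was the highest of all, at 245 and 306 CPM. Bcl10 stood at 140 and 148 CPM and its partner Malt1, a protease, at 59.4 and 69.9 CPM. Traf1 and Traf2, adaptors of TNF receptors, stood at 77.6 and 78.0 CPM and at 32.7 and 38.5 CPM. The ubiquitin ligase genes Birc2 and Birc3 stood at 22.2 and 24.1 CPM and at 26.5 and 22.01 CPM. These 7 receptor-proximal genes together made 603 and 686 CPM, more than any other role. Of the feedback enzymes, Tnfaip3, whose product edits ubiquitin chains to end signalling, stood at 32.7 and 41.0 CPM, and Zc3h12a, an RNase that degrades cytokine mRNAs, at 20.2 and 21.2 CPM. Of the other targets, the adhesion gene Icam1 stood at 92.5 and 104 CPM, Tnfaip8, an apoptosis regulator, at 41.5 and 51.9 CPM, and the early survival gene Ier3 at 5.16 and 6.84 CPM.

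**Figure D1:**
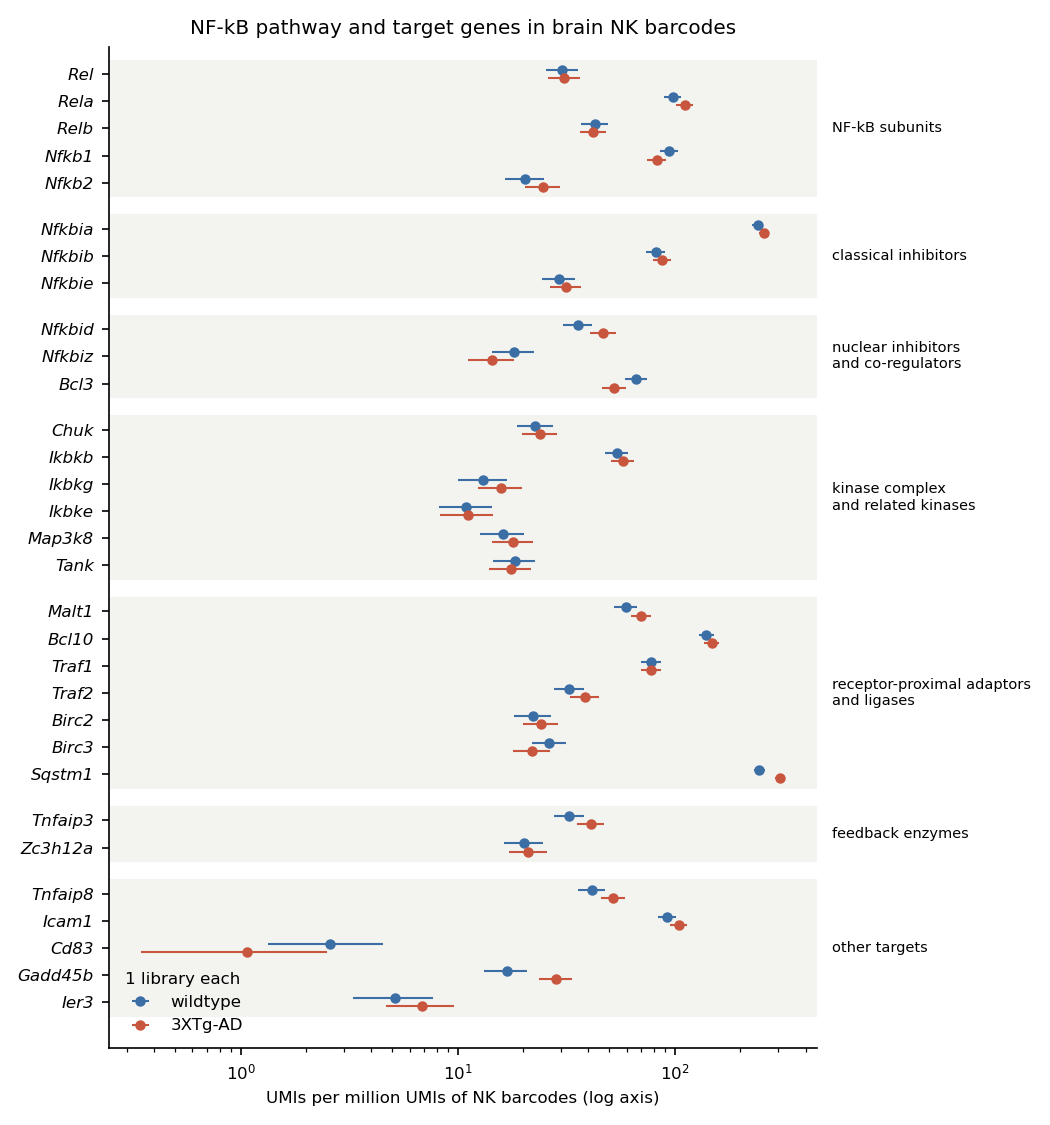
Level of each of the 31 genes in NK barcodes, in CPM on a log axis, grouped by role, with 1 library per group (wildtype blue, 3XTg-AD red) and bars for 95% counting intervals. Sqstm1 and Nfkbia are highest in both libraries, and Cd83 rests on 12 and 5 UMIs.

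The 2 libraries were close for most of these genes in NK barcodes. A gene counted as different when its level differed at least 1.5-fold. Of the 30 genes measured, 1 was at least 1.5-fold higher in the 3XTg-AD library and 0 were lower by as much. Over all 8574 genes measured, 4.69% were higher by that rule and 3.51% lower, so the share of the set, 1 of 30, is near the background. The median log2 ratio of 3XTg-AD over wildtype was 0.10 for the 30 genes and 0.05 for all genes. Ratios were above 1 for 24 of the 30 (80%), against 59.1% of all genes measured. The counting interval left out a ratio of 1 for 7 genes (23.3%), against 24.7% of all genes measured.

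The gene past the threshold was Gadd45b, a stress-inducible gene whose product restrains JNK signalling downstream of NF-kB. It had 78 UMIs in 65 wildtype NK barcodes and 133 UMIs in 72 3XTg-AD NK barcodes. The level was 16.8 CPM in wildtype and 28.4 CPM in 3XTg-AD, a ratio of 1.69 (1.27 to 2.27). The number of barcodes with a UMI thus differed less than the UMIs did, and 1 barcode held up to 5 UMIs in wildtype and 9 in 3XTg-AD. In barcodes thinned to 1400 UMIs each, 1.97% of wildtype and 2.56% of 3XTg-AD NK barcodes held a Gadd45b UMI.

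The other genes whose interval left out 1 differed by less. Nfkbid was at a ratio of 1.31 (1.07 to 1.61) and Tnfaip3 at 1.25 (1.01 to 1.56). Sqstm1 was at 1.25 (1.15 to 1.35), with 28.2% of wildtype and 33.5% of 3XTg-AD thinned NK barcodes holding a UMI, and Tnfaip8 at 1.25 (1.03 to 1.52). These 4 were all higher in the 3XTg-AD library. Rela was at 1.14 (1.001 to 1.29). Bcl3 was the one lower gene among them, at 0.790 (0.665 to 0.938), with a UMI in 226 wildtype and 186 3XTg-AD barcodes. Nfkbia, despite its high counts, was at 1.07 (0.982 to 1.16). Its UMIs were unevenly spread between barcodes, so this counting interval is too narrow to bound the difference.

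By role, ratios ran from 0.876 to 1.21 for the subunits, from 1.07 to 1.08 for the classical inhibitors and from 0.958 to 1.21 for the kinases. They ran from 0.832 to 1.25 for the receptor-proximal genes. The nuclear inhibitors ran from 0.790 to 1.31, in both directions. The 4 measured other targets were all above 1, from 1.13 for Icam1 to 1.69 for Gadd45b.

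**Figure D2:**
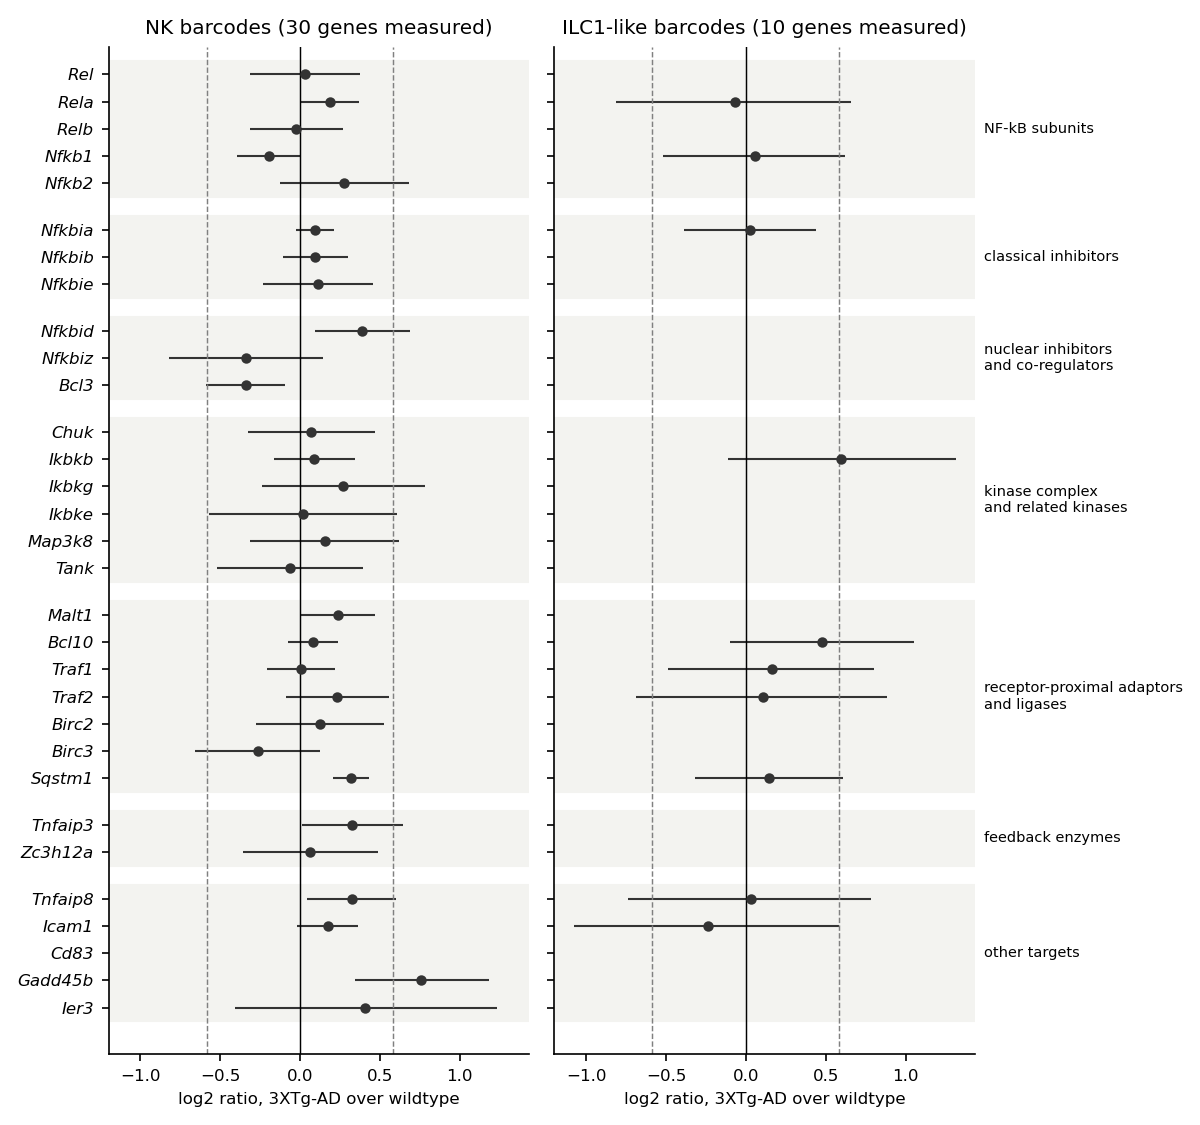
Ratio of levels, 3XTg-AD over wildtype, on a log2 axis for the 30 genes measured in NK barcodes (left) and the 10 measured in ILC1-like barcodes (right), with 95% counting intervals and dashed lines at 1.5-fold. In NK barcodes only Gadd45b lies beyond a dashed line.

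Other genes of the pathway, listed apart from the 31, were as close. Of 42, 36 were measured in NK barcodes. The threshold was passed by 2 upward and 1 downward, and the median log2 ratio was 0.04. Otulin, which removes linear ubiquitin chains, was lower, at 147 CPM in wildtype and 88.0 CPM in 3XTg-AD, a ratio of 0.599 (0.529 to 0.678). Map3k14, the kinase NIK of the alternative pathway, was higher at 1.57 (1.10 to 2.26), and so was Nfkbil1 at 1.54 (1.07 to 2.21). Fbxw11, a subunit of a ligase that recognises marked IkB, was at 1.46 (1.13 to 1.89).

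Of 27 further genes known as NF-kB targets, 15 were measured, 1 was higher and 2 lower. Cxcl10, a chemokine gene that interferons also induce, had 55 UMIs in the wildtype library but 2 in the other, a ratio of 0.0361 (0.00427 to 0.137). Il15, a cytokine gene that NK cells need others to express, had 55 and 7 UMIs, a ratio of 0.126 (0.0486 to 0.278). Bcl2a1d, a survival gene with near-identical copies among which reads could be split, was at 1.78 (1.18 to 2.72). The chemokine gene Ccl3 was at 1.42 (1.30 to 1.54) and Ccl4 at 1.40 (1.34 to 1.46), both below the threshold.

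Of 23 early response and handling genes 20 were measured in NK barcodes, and 9 were at least 1.5-fold higher in the 3XTg-AD library and 0 lower. Their part in the differences above was not tested. Their median log2 ratio was 0.47, with summed levels of 2973 CPM in wildtype and 3761 CPM in 3XTg-AD. Fos was at 3.36 (2.49 to 4.60), Jun at 2.42 (2.08 to 2.83), the heat-shock gene Hspa1a, whose reads could be split with its copy Hspa1b, at 3.34 (2.63 to 4.29), and Egr1 at 1.18 (0.960 to 1.45). Others were below 1, namely Jund at 0.949 (0.909 to 0.990), Socs3 at 0.888 (0.614 to 1.28) and Btg2 at 0.986 (0.895 to 1.09). Nr4a1 had 141 UMIs in 45 wildtype NK barcodes and 246 in 72 3XTg-AD ones, a ratio of 1.73 (1.40 to 2.15). With every barcode holding an unthinned Nr4a1 UMI left out, Gadd45b was at 1.30 (0.918 to 1.86). None of the genes was then past 1.5-fold, and the share of all genes at that setting is not given. In thinned barcodes Gadd45b was at 1.43 (0.838 to 2.48) without Nr4a1 and 1.43 (0.479 to 5.13) with it. The part of barcodes with Nr4a1 in its difference was not tested. Barcodes rich in markers of other cell types had been set apart, so low levels of these markers in NK barcodes follow from the class limits. The summed levels ran from 0 to 17.2 CPM per list in wildtype and from 0 to 7.26 CPM in 3XTg-AD, and the microglia list stood at 1.29 and 6.41 CPM, with Tmem119 and P2ry12 at 0 in wildtype and Csf1r at 0 in 3XTg-AD. The erythroid list stood at 17.2 and 0.214 CPM, from 80 and 1 UMIs, and the neutrophil list at 0 and 6.62 CPM, from 0 and 31 UMIs. The part of these lists in the differences was not tested.

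Within each library, Nfkbia, Nfkbid, Tnfaip3 and Icam1 covaried with Nr4a1 between NK barcodes, while the 4 subunit genes and the kinase Ikbkb that were measured did not reach the same level. Covariation is given as Pearson's r of log(1 + UMIs) over NK barcodes thinned to 1400 UMIs, 1374 in wildtype and 1444 in 3XTg-AD, for genes with at least 50 thinned UMIs in that library. The points of 1 library share its preparation, depth and free RNA, so r is a description and carries no p. In wildtype, 6 of 19 measured genes had r of at least 0.1 with Nr4a1 (Nfkbia, Nfkbie, Nfkbid, Birc3, Tnfaip3 and Icam1), against 0.606% of all genes. In 3XTg-AD it was 5 of 21 (Nfkbia, Nfkbid, Tnfaip3, Icam1 and Gadd45b), against 0.691%. In both libraries it was 4 of 19, against 0.305% of the genes measured in both.

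Nfkbia had r of 0.30 with Nr4a1 in wildtype and 0.32 in 3XTg-AD, rank 2 of 4787 genes in wildtype, where Ccl4 itself came first at 0.41. Tnfaip3 had 0.24 and 0.28, Nfkbid 0.17 and 0.24, and Icam1 0.15 and 0.12. Gadd45b had 0.27 in 3XTg-AD and was below the minimum in wildtype, with 30 thinned UMIs. By contrast the subunits ran low. Rela had -0.01 and 0.03, Nfkb1 -0.01 and 0.01, Relb 0.03 and 0.02, and Rel 0.06 and 0.01. The kinase Ikbkb had -0.02 and -0.01, and the adaptors Bcl10 and Traf2 had 0.03 and 0.04, and -0.01 and -0.01. Sqstm1, the highest gene of the set, had 0.04 and 0.08.

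With Ccl4 as the reference, 6 of 19 genes reached r of 0.1 in wildtype (Nfkbia, Nfkbib, Nfkbie, Nfkbid, Bcl3 and Icam1), against 1.07% of all genes, but with Spearman's rho in place of r 0 did. In 3XTg-AD it was 5 of 21 (4 with rho), the same 5 genes as with Nr4a1, against 0.671%, and in both libraries 3 of 19, against 0.479%. The percentages of all genes are for r, and none is given for rho. Among the genes past the limit in both libraries Nfkbid led, with r of 0.27 and 0.33, followed by Nfkbia with 0.23 and 0.24 and Icam1 with 0.15 and 0.13. In 3XTg-AD, Gadd45b at 0.23 and Tnfaip3 at 0.20 lay above Icam1. Tnfaip3 was at 0.0973 in wildtype, just under the limit, while Nfkbie at 0.10 with Nr4a1 and Bcl3 at 0.11 with Ccl4 lay just above it. Counts near the limit are therefore loose.

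**Figure D3:**
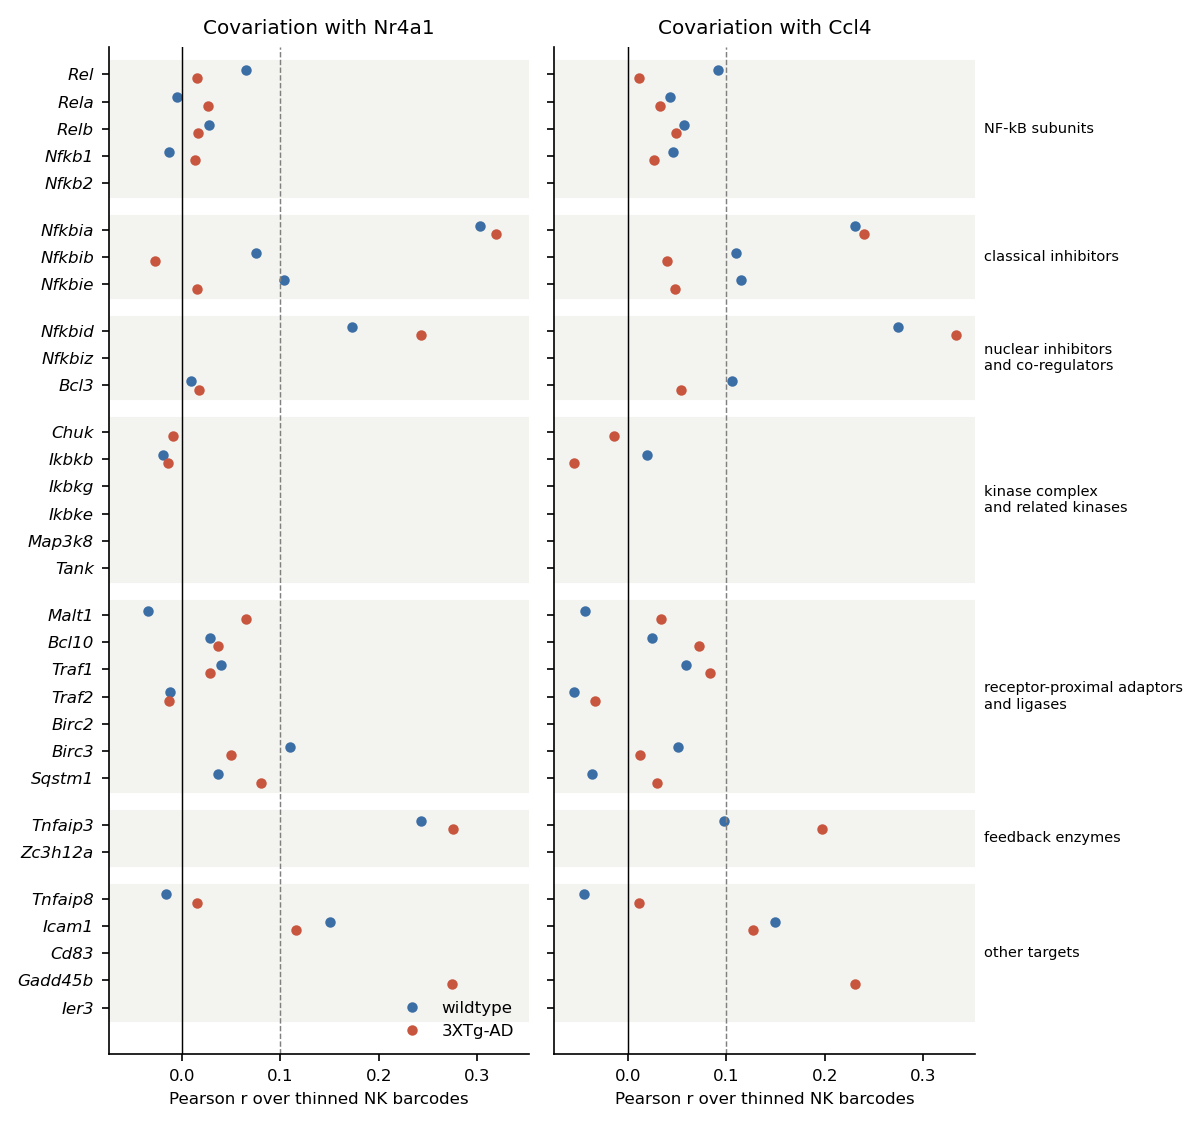
Pearson r of each gene with Nr4a1 (left) and Ccl4 (right) over thinned NK barcodes of the wildtype (blue) and 3XTg-AD (red) library, with a dashed line at 0.1; genes under 50 thinned UMIs in a library have no point. Nfkbia, Nfkbid and Icam1 lie to the right of the line in both panels and both libraries, and the subunit genes to its left.

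The covariation came from few barcodes. Of the thinned NK barcodes, 27 of 1374 (1.97%, 1.30 to 2.85) held a Nr4a1 UMI in wildtype and 49 of 1444 (3.39%, 2.52 to 4.46) in 3XTg-AD, and without thinning 3.01% and 4.71%. At least 5 Ccl4 UMIs were held by 4.29% (3.28 to 5.50) and 6.99% (5.73 to 8.43), or 7.02% and 11.8% without thinning. The groups overlapped, since 17 of the 27 and 27 of the 49 barcodes with Nr4a1 were also high in Ccl4, which makes 17 of the 59 and 27 of the 101 barcodes high in Ccl4. Median depth before thinning was 2744 UMIs with Nr4a1 and 2980 without in wildtype, and 3230 and 2832 in 3XTg-AD, so the direction of the depth difference was not shared for Nr4a1. For Ccl4 it was shared, with 3122 UMIs in barcodes high in Ccl4 and 2949.5 in those with 0 in wildtype, and 3185 and 2791 in 3XTg-AD, and the part of depth was not tested. The median mitochondrial share with and without Nr4a1 was 1.29% and 1.41% in wildtype and 1.27% and 1.18% in 3XTg-AD. With high and with 0 Ccl4 it was 1.23% and 1.43%, and 1.13% and 1.20%. No cell type in the sort lacks NF-kB genes, and microglia-list barcodes held Ncr1 at 49.1% and 44.9% of its NK level, so they give no free-RNA level for these genes.

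In barcodes with Nr4a1, Nfkbia was several-fold higher. It stood at 2090 CPM against 234 CPM without Nr4a1 in wildtype, 8.94-fold (6.94 to 11.4), and at 1501 against 227 CPM in 3XTg-AD, 6.62-fold (5.29 to 8.22). A Nfkbia UMI was in 55.6% (35.3 to 74.5) against 22.6% (20.4 to 24.97) of wildtype barcodes and in 61.2% (46.2 to 74.8) against 23.2% (21.0 to 25.5) of 3XTg-AD ones. The barcodes with Nr4a1, 1.97% and 3.39% of all, held 15.2% and 18.9% of all thinned Nfkbia UMIs.

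Nfkbid was 12.2-fold (6.12 to 22.8) higher in wildtype barcodes with Nr4a1, from 13 and 53 UMIs, and 9.63-fold (5.73 to 15.7) higher in 3XTg-AD ones, from 23 and 68. Tnfaip3 was 7.92-fold (3.62 to 15.5) and 7.91-fold (4.56 to 13.1) higher. Gadd45b was 9.98-fold (2.98 to 26.5) higher in wildtype, from 5 UMIs in the barcodes with Nr4a1, and 10.0-fold (4.88 to 19.3) higher in 3XTg-AD, from 13. For these genes the interval lay above 1 in both libraries. Icam1 was 7.65-fold (4.81 to 11.7) higher in wildtype and 2.52-fold (1.47 to 4.09) in 3XTg-AD, and the difference between these folds was not tested. Nfkbiz, under the minimum for r, was 13.6-fold (4.51 to 34.6) and 7.38-fold (2.71 to 17.4) higher, from 6 and 7 UMIs.

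In each library the interval lay above 1 for 10 of the 31 genes and below 1 for 0, and many of the other intervals were wide. The same count was not made over all genes, so it is not read as a trait of the set. Rela had 3 UMIs in wildtype barcodes with Nr4a1, a ratio of 0.748 (0.153 to 2.22), and 12 in 3XTg-AD, a ratio of 1.47 (0.750 to 2.62). Nfkb1 was at 0.846 (0.173 to 2.51) and 0.890 (0.285 to 2.12), and Bcl10 at 1.08 (0.395 to 2.39) and 1.32 (0.713 to 2.25). Malt1 had 0 UMIs in the 27 wildtype barcodes, an upper bound of 1.73 on its ratio, and was at 1.51 (0.640 to 3.05) in 3XTg-AD. Smaller differences could not be seen at this depth. Further genes had intervals above 1 in 1 or both libraries. Sqstm1 was at 1.11 (0.528 to 2.06) in wildtype and 1.68 (1.15 to 2.38) in 3XTg-AD. Birc3 was at 3.84 (1.01 to 10.4) and 3.49 (1.22 to 8.15), from 4 and 6 UMIs, and Zc3h12a at 5.87 (1.51 to 16.5) and 3.97 (1.38 to 9.37), also from 4 and 6. Nfkbie was at 6.65 (2.32 to 15.6) in wildtype and 1.67 (0.444 to 4.49) in 3XTg-AD. Rel was at 4.23 (1.32 to 10.4) and 1.45 (0.290 to 4.44), and Map3k8 at 1.51 (0.0372 to 9.03) and 4.74 (1.44 to 12.4). Each of the last 3 genes rested on at most 6 UMIs in the barcodes with Nr4a1. The heat-shock gene Hspa1a had 0 UMIs with Nr4a1 in wildtype, an upper bound of 5.38, and was at 1.22 (0.388 to 2.92) in 3XTg-AD.

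**Figure D4:**
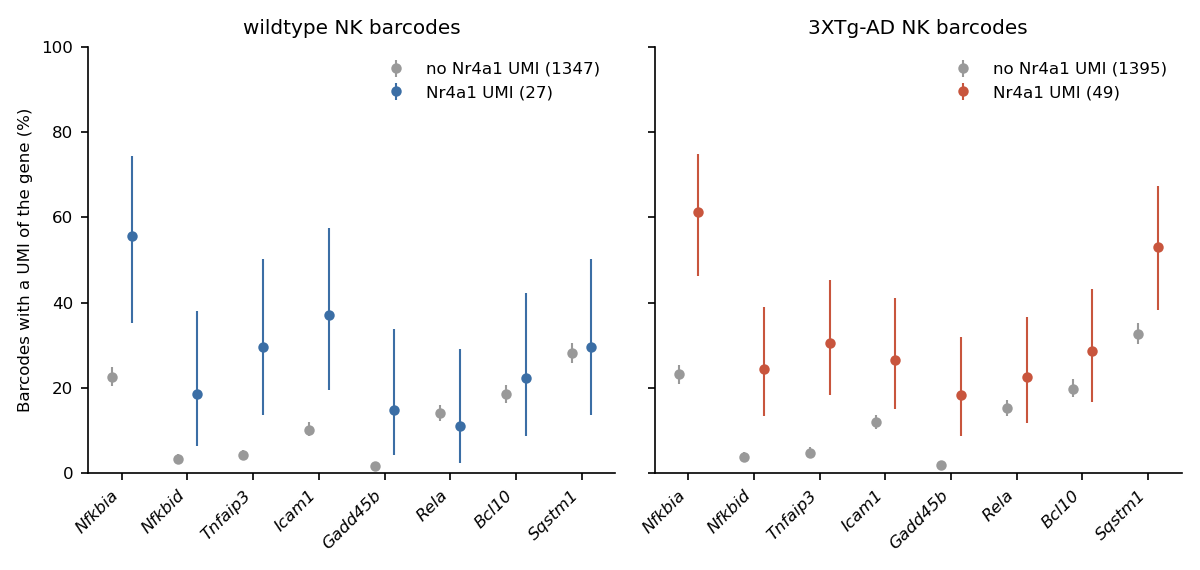
Share of thinned NK barcodes with a UMI of 8 genes, in barcodes without (grey) and with (coloured) a Nr4a1 UMI, for wildtype (left, 1347 and 27 barcodes) and 3XTg-AD (right, 1395 and 49), with exact 95% intervals. Nfkbia, Nfkbid, Tnfaip3, Icam1 and Gadd45b are higher with Nr4a1 in both libraries, while the intervals of Rela and Bcl10 overlap.

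Inside the barcodes with Nr4a1, the interval of the ratio of 3XTg-AD over wildtype left out 1 for Nfkbia and Icam1 among the 31 genes, which are singled out after seeing the values and with no share over all genes beside them. Nfkbia stood at 2090 CPM in wildtype and 1501 CPM in 3XTg-AD there, a ratio of 0.718 (0.531 to 0.976), although the share of these barcodes with a Nfkbia UMI was the higher in 3XTg-AD, as given above. Icam1 stood at 661 and 262 CPM, a ratio of 0.397 (0.204 to 0.757), from 25 UMIs in 10 wildtype barcodes and 18 in 13 3XTg-AD barcodes. Gadd45b was at a ratio of 1.43 (0.479 to 5.13) with Nr4a1 and 1.43 (0.838 to 2.48) without. In barcodes without Nr4a1, Nfkbia was at 0.970 (0.848 to 1.11) and Icam1 at 1.20 (0.974 to 1.49). The interval left out 1 there for 4 of the 31 genes. No share over all genes is given beside this count either, so it is not read as a trait of the set. Bcl3 was at 0.713 (0.545 to 0.932), Ikbkb at 1.40 (1.06 to 1.86), Malt1 at 1.35 (1.05 to 1.74) and Sqstm1 at 1.23 (1.09 to 1.40).

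High Ccl4 went with several of these genes and with others. In wildtype, Nfkbid was 12.9-fold (7.49 to 22.01) higher in barcodes with at least 5 Ccl4 UMIs than in those with 0, and in 3XTg-AD 19.2-fold (11.5 to 32.8). Nfkbia was 5.14-fold (4.05 to 6.47) and 4.79-fold (3.87 to 5.90) higher. Gadd45b was 6.26-fold (2.24 to 15.4) and 16.0-fold (8.12 to 32.7) higher. Bcl3, whose interval held 1 in both libraries with Nr4a1, was at 3.24 (1.81 to 5.46) and 2.15 (1.14 to 3.81). Birc3 was at 2.50 (0.869 to 5.89) and 0.801 (0.158 to 2.54), so the interval held 1 in both libraries. Ikbkb was at 1.63 (0.576 to 3.73) in wildtype and 0.207 (0.0247 to 0.768) in 3XTg-AD, where it rested on 2 UMIs. In 3XTg-AD, barcodes high in Ccl4 held 52.7% of the thinned Nfkbid UMIs and 50% of those of Gadd45b. With barcodes holding a Nr4a1 UMI left out, an alternative added after seeing the data, 0 of 17 genes reached r of 0.1 with Ccl4 in wildtype (1330 barcodes) and 2 of 19 in 3XTg-AD (1372 barcodes), Nfkbid at 0.19 and Tnfaip3 at 0.11. Nfkbia was then at 0.05 and 0.08. Barcodes high in Ccl4 were among those left out, and the share of all genes is not given beside these counts. Whether the fall is particular to these genes was not tested.

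The genes outside the set most like Nfkbia, by the mean of its r in both libraries over 4591 genes measured in both, were Nr4a1 at 0.31, Ccl4 at 0.24, Junb at 0.20, Tagap at 0.16 and Ccl3 at 0.15. Within the set, Nfkbid, Tnfaip3 and Icam1 had r of at least 0.1 with Nfkbia in both libraries, 3 of 18 against 0.24% of genes. Within wildtype alone it was 6 of 18 against 0.46%, Rel, Nfkbib and Birc3 being the others, and within 3XTg-AD 4 of 20 against 0.395%, with Gadd45b.

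In ILC1-like barcodes the libraries could be compared for 10 of the 31 genes, since 21 had fewer than 50 UMIs over both. Of the 10, 1 was at least 1.5-fold higher in 3XTg-AD, Ikbkb, and 0 lower, against 5.42% and 5.86% of the 2732 genes measured. Ikbkb had 33 and 38 UMIs, 55.5 and 84.0 CPM, a ratio of 1.51 (0.924 to 2.49). The interval held 1 for each of the 10 genes, and their median log2 ratio was 0.08. Nfkbia had 116 and 90 UMIs, 195 and 199 CPM, a ratio of 1.019 (0.765 to 1.35). Its direction depended on the processing, with a log2 ratio of -0.53 in thinned barcodes, 0.54 with a class limit of 5 UMIs and 0.59 with the limit counted after thinning. Sqstm1 was at 1.11 (0.803 to 1.52) and Bcl10 at 1.39 (0.933 to 2.07).

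Of the 21 below the minimum, 13 had over 10 UMIs in 1 or both libraries. Of those 13, 4 had at most 2 UMIs in the 3XTg-AD library and 0 had at most 2 in wildtype, against 59 and 3 of 3141 genes over 10 UMIs in the same way. These limits were chosen after seeing the values of the 4, so nothing is read from the count. Ier3 had 16 and 2 UMIs, Nfkbiz and Ikbke 12 and 2 each, and Nfkbid 11 and 2. The 16 Ier3 UMIs lay in 14 of the 101 wildtype barcodes. Other sparse genes were even or higher in 3XTg-AD, with 18 and 19 UMIs for Relb, 9 and 12 for Nfkb2 and 2 and 5 for Gadd45b. Of the 23 early response genes 9 were measured here, of which 0 passed the threshold upward and 2 downward, and Nr4a1 had 2 and 0 UMIs.

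Several of the genes were lower in ILC1-like than in NK barcodes of the same library. Of 29 genes measured in both libraries, 9 were at least 1.5-fold lower in ILC1-like barcodes in both (Nfkbib, Nfkbid, Bcl3, Chuk, Malt1, Sqstm1, Tnfaip3, Icam1 and Gadd45b) and 1 at least 1.5-fold higher (Traf2). Over all 7221 genes measured, 14% were lower and 4.47% higher by that rule. Depth differed between the classes, as given above. In barcodes thinned to 1400 UMIs 3 genes were lower and 0 higher, but thinning also leaves fewer UMIs to reach the minimum. The share of all genes after thinning is not given beside this count, and the part of depth was not tested.

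Tnfaip3 had 13.5 CPM in ILC1-like against 32.7 CPM in NK barcodes of the wildtype library, a ratio of 0.412 (0.175 to 0.832), and 8.84 against 41.0 CPM in 3XTg-AD, a ratio of 0.215 (0.0581 to 0.561). Bcl3 was at 0.305 (0.156 to 0.540) and 0.464 (0.229 to 0.845). Sqstm1 was at 0.611 (0.486 to 0.758) and 0.542 (0.424 to 0.684), and Icam1 at 0.618 (0.423 to 0.878) and 0.466 (0.289 to 0.714). The intervals of these 4 genes left out 1 in both libraries, as did those of Nfkbib, Nfkbid, Malt1 and Gadd45b. Those of Chuk held 1 in both. In ILC1-like barcodes Chuk rested on 7 and 5 UMIs and Gadd45b on 2 and 5. Nfkbid was at 0.518 (0.254 to 0.952) in wildtype and 0.0944 (0.0114 to 0.345) in 3XTg-AD, where it rested on 2 UMIs. Traf2 was at 1.70 (1.13 to 2.49) and 1.55 (0.995 to 2.33). Nfkbia was only slightly lower, at 0.809 (0.662 to 0.980) and 0.773 (0.617 to 0.958).

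The references were lower still. Ccl4 stood at 95.9 CPM in wildtype and 122 CPM in 3XTg-AD ILC1-like barcodes, ratios to NK barcodes of 0.118 (0.0891 to 0.153) and 0.107 (0.0803 to 0.139). Nr4a1 had 2 UMIs in the wildtype ILC1-like barcodes, a ratio of 0.111 (0.0133 to 0.408), and 0 in 3XTg-AD, an upper bound of 0.156. Covariation with Nr4a1 could therefore not be described in these barcodes.

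**Figure D5:**
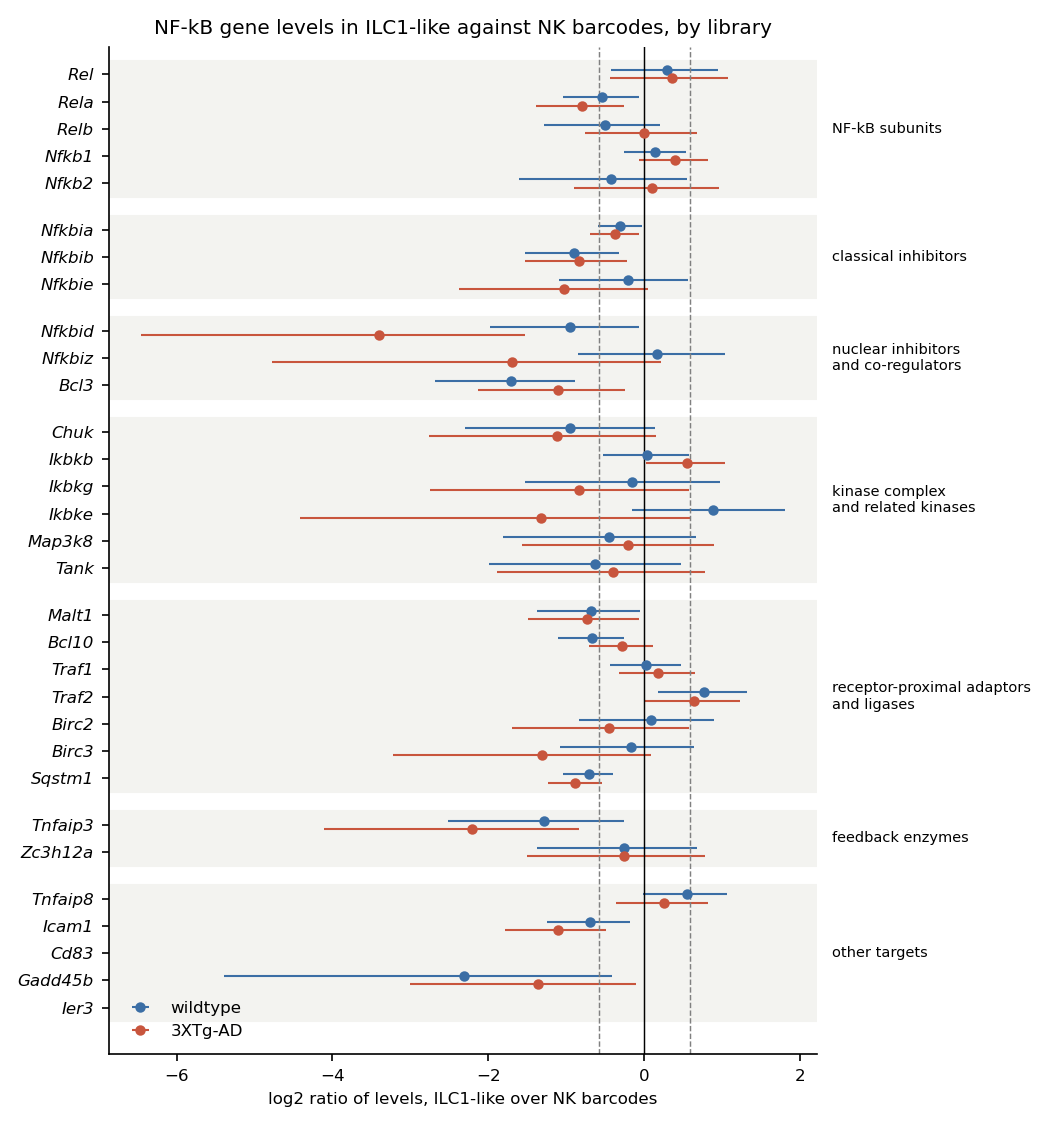
Ratio of levels in ILC1-like over NK barcodes on a log2 axis for 29 genes, by library (wildtype blue, 3XTg-AD red), with 95% counting intervals and dashed lines at 1.5-fold. Tnfaip3, Bcl3, Nfkbid and Gadd45b lie left of the dashed line in both libraries and Traf2 right of it.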

How the data were processed

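Single-cell 5′ RNA libraries of sorted brain NK cells were made with the 10x Genomics kit and read as paired 75-base reads, per the labels' protocols. The authors deposited 1 matrix of UMI counts per library, unnormalized and listing 31053 genes, made with Cell Ranger 3.1.0 and STAR on mm10, per the submitters' processing notes; the matrix headers name software 3.0.2. Which annotation was counted is not stated in these sources.

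Barcodes were kept with at least 300 genes, at most 10% mitochondrial UMIs and no Scrublet doublet call within their library (13 wildtype and 22 3XTg-AD calls), which left 1649 and 1663. Those with at least 3 UMIs of a T, B, microglia, monocyte or endothelial marker list, or 20 of a neutrophil or erythroid list, were set apart (32 and 50). Of the rest, ILC1-like barcodes held at least 3 summed UMIs of 5 genes and NK barcodes at least 3 of an NK list, and 20 and 4 fell in neither. Nothing was clustered.

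Counts were summed per class (4649096 and 4680369 UMIs in NK, 594454 and 452617 in ILC1-like barcodes) and scaled to CPM. Ratios carry exact conditional (binomial) 95% intervals and shares exact Clopper-Pearson ones, which cover counting error only and are too narrow where few barcodes hold a gene's UMIs. For covariation and shares, barcodes were thinned to 1400 UMIs, which left out 122 and 86 NK barcodes. Ratios and intervals were tested on simulated data. Python 3.11.15, numpy 2.4.6, scipy 1.17.1 and scanpy 1.11.5 were used.

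All 31 genes are named whatever their values, with up to 4 others each of the 2 further NF-kB lists by largest absolute log2 ratio, the 5 most like Nfkbia, and Fos, Jun, Egr1 and Hspa1a. The genes and lists were chosen with earlier results of these data known. Alternatives changed the UMI minimum, scaling, thinning, doublets, class limits, correlation measure and barcodes with Nr4a1. Promoter windows are RefSeq's on GRCm38.p6.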

Additional observations from a re-analysis of the deposited data

Results flagged for a closer look

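For 3 genes the ratios of 3XTg-AD over wildtype pointed in opposite directions in ILC1-like and NK barcodes. The log2 ratio of Rela was -0.07 in ILC1-like and 0.19 in NK barcodes, that of Nfkb1 was 0.05 and -0.19, and that of Icam1 was -0.23 and 0.17. With 1 library per group these differences between classes were not tested. The ILC1-like intervals of all of them held a ratio of 1, and so did the NK intervals of Nfkb1 (0.762 to 1.006) and Icam1 (0.988 to 1.29). Of the genes measured in both classes, 3 of 10 in the set and 42.5% of all 2723 pointed in opposite directions.

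Nfkbia is also described in barcodes outside the comparisons, singled out after seeing the values and with no share over all genes beside it. In barcodes with at least 3 UMIs of the microglia list, 8 in wildtype and 31 in 3XTg-AD, it had 3 and 47 UMIs, a ratio of 3.46 (1.11 to 17.4). These barcodes also held Ncr1 at 49.1% and 44.9% of its NK level, so NK RNA was among their UMIs.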

How the results depend on the processing

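Of 130 recomputed values that answer a comparison, 108 stayed the same and 22 moved. Counts were the same when within 1.5-fold, and medians and single ratios when inside the interval of the main value, whatever their direction. Of 448 recomputed ratios of single genes 441 stayed the same, 7 moved and 0 reversed. A reversal could be called only for genes past the threshold, and a changed UMI minimum cannot change a ratio, so these numbers say little about stability. In NK barcodes, the count of genes at least 1.5-fold higher was 0 without barcodes holding a Nr4a1 UMI, and the median log2 ratio was 0.0501 after division by the median ratio of all genes. Nfkbia was at a log2 ratio of -0.05 without barcodes holding Nr4a1, and Nfkbiz at 0.21 in place of -0.34 after thinning. In ILC1-like barcodes, a minimum of 20 UMIs gave 2 genes higher and 1 lower, and a minimum of 100 gave 0 higher. Thinning left 1 gene measured, Nfkbia, with 0 higher and a median of -0.53, and class limits counted after thinning left Nfkbia alone, with a median of 0.59.

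Of genes set apart between ILC1-like and NK barcodes, 5 were lower with totals that leave out ribosomal protein and mitochondrial genes, 3 were lower and 0 higher after thinning, 3 were lower and 0 higher with the class limit counted after thinning, and 0 were higher with a class limit of 2 UMIs. These alternatives were chosen after seeing the data. For r of at least 0.1 with Nr4a1, a minimum of 100 thinned UMIs gave 2 genes in wildtype and 2 in 3XTg-AD, and thinning to 2000 UMIs gave 3 in wildtype. For Ccl4 in wildtype, Spearman's rho gave 0, and leaving out barcodes with Nr4a1, added after seeing the data, gave 0. For Ccl4 in 3XTg-AD, a minimum of 100 gave 2, thinning to 2000 UMIs gave 9, and leaving out barcodes with Nr4a1 gave 2. Shares over all genes at these settings are not given beside the counts. Beyond the fewer barcodes or genes these settings leave, the cause was not tested. No paired analysis was possible because each group has 1 library. Depth limits the ILC1-like comparison to 10 genes and the barcodes with Nr4a1 to 27 and 49.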
